A study of Saccharomyces cerevisiae with 4 samples.

Results

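Ribosome biogenesis in budding yeast was followed through the mRNAs of 36 genes, chosen by name from the 6679 identifiers of a poly(A) RNA table. They comprise nucleolar snoRNP proteins, DEAD-box RNA helicases, large and small subunit processing factors, RNA polymerase I subunits and ribosomal protein chaperones. All 36 were found. The cells were wild-type *Saccharomyces cerevisiae* of the SK1 strain, growing vegetatively in YPD, a rich medium, and harvested in exponential phase. The bEST group holds 2 libraries, from cells given 20 nM and 40 nM of an inducer that the labels call bEST, and the EtOH group holds 2 libraries from cells given volume-matched ethanol. The series was designed to compare cells with and without high levels of spliced HAC1 mRNA from an exogenous source. Spliced HAC1 mRNA is translated into the activator that drives the unfolded protein response, the cell's answer to misfolded protein in the endoplasmic reticulum. The labels do not say how HAC1 was driven, nor that the libraries came from separate cultures, so p-values measure only the spread between these 4 libraries.

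Making a ribosome starts in the nucleolus, where RNA polymerase I transcribes a long precursor rRNA. Small nucleolar ribonucleoproteins (snoRNPs) modify the precursor, processing factors fold and cleave it, and helicases and GTPases remodel the particles until they leave the nucleus as small and large subunits. The process takes up much of a growing cell's transcription and energy, and yeast is known to turn its genes up with good nutrients and down with stress. Known regulators act through a pair of promoter elements, PAC and RRPE, which recur upstream of these genes. Poly(A) libraries measure the mRNAs of the factors and not the rRNA they process.

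The promoter pair was searched for first. Because the pair is already known to recur upstream of these genes, its share among them describes the list and is no result of the expression values. In the 300 bases before each start codon of the R64 reference genome, PAC was searched as GATGAG and RRPE as AAAATTTT, on both strands. PAC letters preceded 35 of the 36 genes (97.2%), against 19.1% of all 6007 scanned protein-coding genes. RRPE letters preceded 32 of the 36 (88.9%), against 9.4% of all scanned genes. Both stood upstream of 31 of the 36 (86.1%), against 4.4% of all. UTP4 lacked PAC letters, and NOP10, MAK5, NOP4 and IMP3 lacked RRPE letters in this window. The core of the unfolded protein response element, searched as CAGCGTG, preceded 0 of the 36 genes and 1.2% of all. A match is a run of letters, not a shown binding site, and R64 is not the SK1 genome.

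The stretches below, read from the RefSeq R64 sequence on the coding strand of each gene, show the closest pair in 8 of the 31 genes, with the PAC and RRPE letters in capitals and 10 bases on each side. They were picked to show several spacings, up to 47 bases between motif starts, and genes described below. NOP10 has no such pair to show.
NOP58 (chrXV:898458-898492, minus strand): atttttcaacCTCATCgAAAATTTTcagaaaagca
NOG1 (chrXVI:370825-370865, plus strand): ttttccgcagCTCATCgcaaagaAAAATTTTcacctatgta
NOP7 (chrVII:695266-695303, plus strand): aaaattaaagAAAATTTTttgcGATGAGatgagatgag
UTP10 (chrX:217394-217435, minus strand): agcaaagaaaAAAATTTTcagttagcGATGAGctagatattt
NHP2 (chrIV:87379-87425, plus strand): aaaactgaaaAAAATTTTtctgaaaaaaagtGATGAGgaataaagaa
RPA190 (chrXV:960784-960830, plus strand): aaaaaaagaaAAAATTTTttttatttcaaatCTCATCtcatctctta
RPA135 (chrXVI:581290-581341, minus strand): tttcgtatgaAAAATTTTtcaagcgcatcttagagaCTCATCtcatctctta
SQT1 (chrIX:378376-378448, plus strand): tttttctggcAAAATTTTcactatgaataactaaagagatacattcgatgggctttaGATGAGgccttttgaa

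The starts of the closest PAC and RRPE matches lay 7 to 60 bases apart, with a median of 16, and under 30 bases apart in 26 of the 31 genes. RRPE lay farther from the start codon than PAC in 22 genes and nearer in 9. PAC matches lay at a median of 122 bases before the start codon and RRPE matches at 147. In NOP7, RPA190 and RPA135 PAC letters recur with the last base of a match as the first base of the next. The same holds for HAS1, DRS1, NOP4, YTM1, RLP7, NUG1, EBP2 and RRP5. Neighbouring PAC matches in these genes are thus not separate stretches, though the median counts each match. The map of motif positions shows this layout for each gene.

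**Figure D1:**
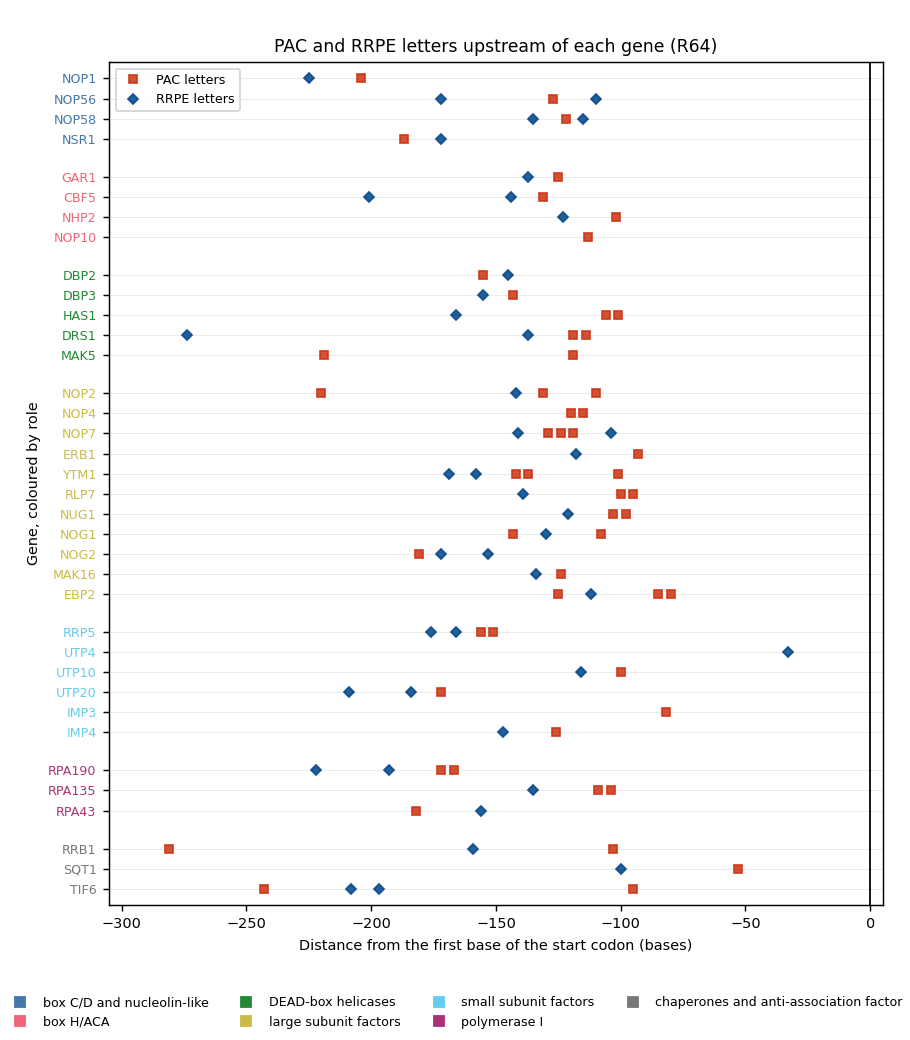
Position of PAC letters (squares) and RRPE letters (diamonds) in the 300 bases before the start codon of each of the 36 genes in R64, in bases from the first base of the start codon; rows are genes, coloured by role. Matches gather in the middle of the window, at a median of 122 bases for PAC and 147 for RRPE.

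Depth recovered from the deposited RPKM values (reads scaled by gene length and library depth) was 1183246 reads in the 20 nM bEST library and 4161186 in the 40 nM bEST library. It was 2133090 and 2599249 reads in the EtOH libraries matched to 20 and 40 nM. The 36 genes together took 1.08% and 1.03% of the recovered reads in the 20 and 40 nM bEST libraries, against 1.15% and 1.11% in the matched EtOH libraries. Each gene had at least 76 reads in every library. HAC1 stood at 5922 and 3712 RPKM in the bEST libraries at 20 and 40 nM, against 487 and 528 RPKM in the matched EtOH libraries, and its targets KAR2 and ERO1 were also higher in both bEST libraries. Of 8 meiotic markers, 3 (HOP1, SPS1 and SPS4) had both bEST libraries above both EtOH libraries, against 23.0% of all tested genes. SPS1 reached at most 3.57 RPKM, and in the other markers the groups overlapped. The meiotic regulator NDT80 stayed at or under 0.66 RPKM in every library. HOP1 stood at 13.5 and 12.2 RPKM with bEST, against 0.27 and 0.44 RPKM with EtOH. SPS4 stood at 11.5 and 9.04 RPKM with bEST, against 1.96 and 2.81 RPKM with EtOH. The 8 markers summed to 36.5 and 36.3 RPKM with bEST and to 11.4 and 14.1 RPKM with EtOH. Most of the bEST sums came from HOP1 and SPS4. The part of the markers in the results below was not tested.

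No gene of the 36 passed the test between bEST and EtOH. With limma on log2(RPKM + 1) and Benjamini-Hochberg adjusted p under 0.05 as the threshold, 0 rose and 0 fell, where 2.48% of the 5317 tested genes rose and 0.733% fell. All 36 were among the genes tested. At an unadjusted p under 0.05, 1 of the 36 remained, NOP10, against 869 of all tested genes. limma-voom on recovered reads called NOP10 lower (adjusted p = 0.0441) and no other of the 36. The median log2 fold change of the 36 genes, bEST over EtOH, was -0.11, and that of all tested genes was -0.02. The fit gave 28 of the 36 a negative fold change. The share of all tested genes with a negative one was not counted, though their median was also below 0.

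Both bEST libraries lay below both EtOH libraries in 13 of the 36 genes (36.1%), against 23.9% of all tested genes. Both lay above in 2 of the 36 (5.56%), NOG1 and UTP10, against 23.0% of all tested genes. In the other 21 the groups overlapped. Dividing each library by its median ratio to the average library left these counts at 13 and 2, though NOP58 and NUG1 then overlapped and DBP2 and RPA43 then lay below. Across the 36 genes the EtOH libraries stayed close to each other, with an SD of 0.14 for their log2 ratio, whereas the bEST libraries of 20 and 40 nM differed from each other with an SD of 0.49. Over all tested genes, which had a lower median level, those SDs were 0.43 and 0.63. The 20 nM bEST library was the lowest of the 4 in 20 of the 36 genes and the highest in 10. These ranks were not counted over all tested genes.

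**Figure D2:**
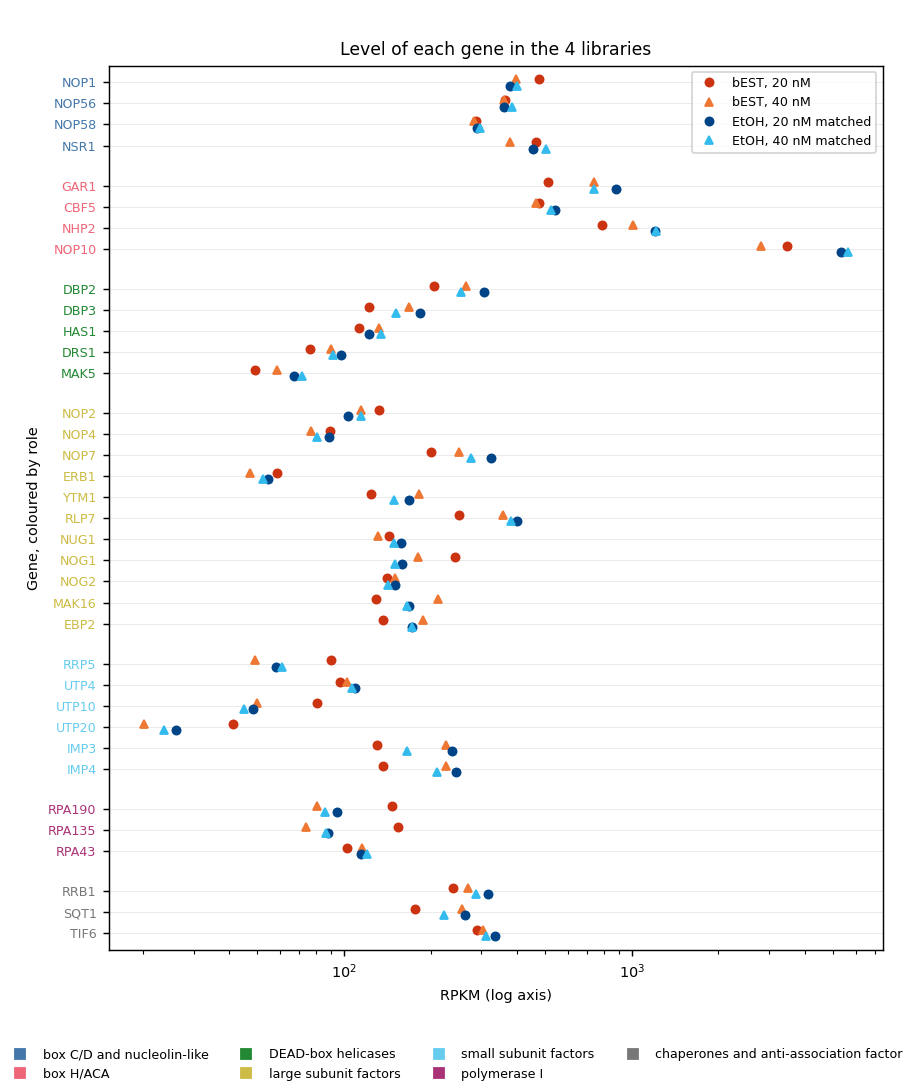
RPKM of each of the 36 genes on a log axis, with red and orange points for bEST at 20 and 40 nM and dark and light blue points for the matched EtOH libraries. Levels run from UTP20 at 20.2 to 41.1 RPKM up to NOP10 at 2812 to 5626 RPKM. The bEST points lie farther apart, on the log scale, than the EtOH points in 32 of the 36 rows, a count not made over all tested genes.

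Each dose has 1 library per treatment, so the dose ratios are described without a test. Their 95% intervals are exact binomial intervals on recovered reads, and they cover counting error only. At 20 nM, 6 of the 36 genes were at least 1.5-fold higher with bEST, against 16.2% of all tested genes, and 8 were at least 1.5-fold lower, against 22.1%. Both shares, 16.7% and 22.2%, were close to the background. At 40 nM, 0 were at least 1.5-fold higher, against 15.5% of all tested genes, and 1, NOP10, was at least 1.5-fold lower, against 8.2%. The background was not matched on level. The median of the mean RPKM was 168.0 for the 36 genes and 45.8 for all tested genes. The median log2 ratio of the 36 was -0.18 at 20 nM and -0.06 at 40 nM, against -0.10 and 0.07 for all tested genes. At 20 nM 12 of the 36 ratios were above 0, against 2321 of the 5317 tested genes, and at 40 nM 11, against 3012. The sign was the same at both doses in 17 of the 36 genes, of which 15 were lower and 2 higher, and opposite in 19. Signs at both doses were not counted together over all tested genes.

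**Figure D3:**
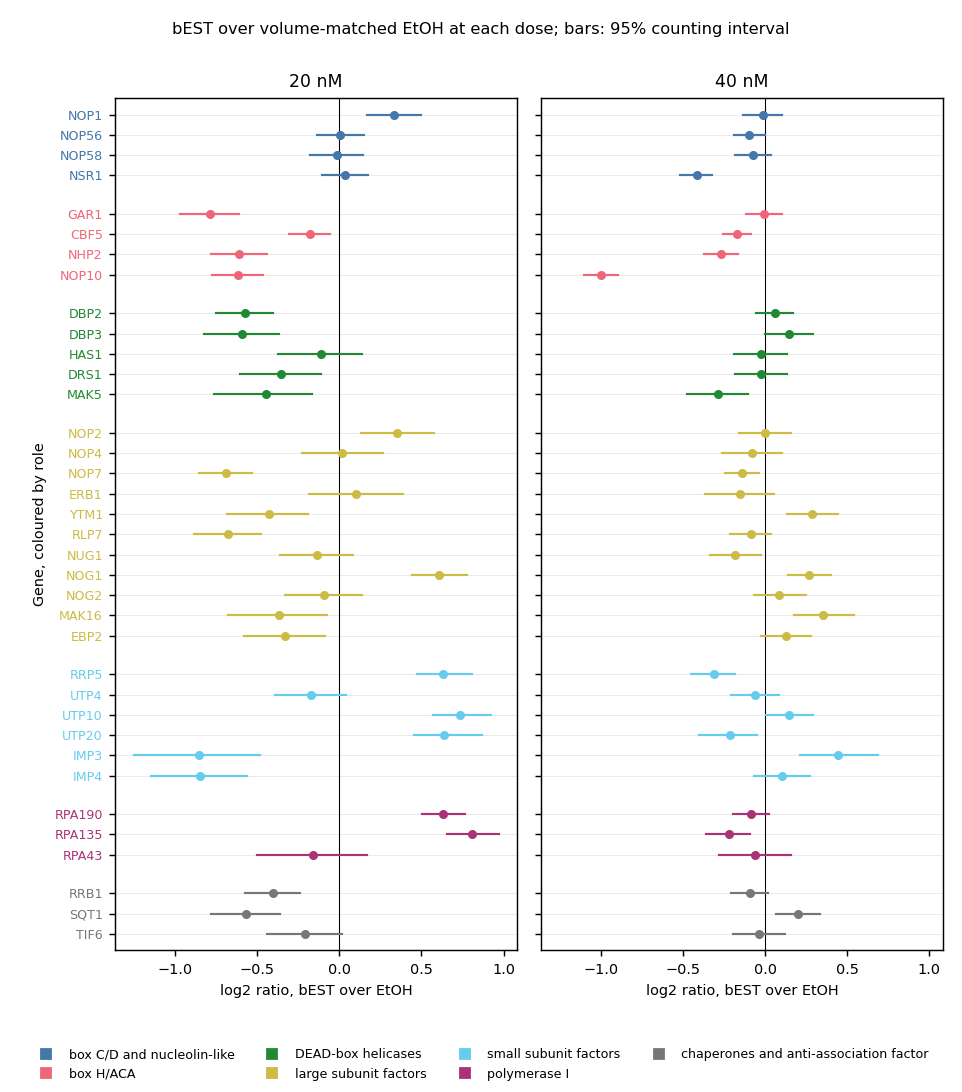
Log2 ratio of each bEST library over its volume-matched EtOH library at 20 nM (left) and 40 nM (right) for the 36 genes, with 95% counting intervals as bars. At 20 nM the ratios spread from -0.86 to 0.81, and at 40 nM all but NOP10 lie between -0.42 and 0.45.

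The box C/D snoRNP proteins direct methylation of rRNA, and of their mRNAs those of NOP56 and NOP58 stood nearly level in all libraries. NOP56 (YLR197W), a core protein of the particle, had 362 and 359.7 RPKM with bEST at 20 and 40 nM, against 361 and 384 RPKM with the matched EtOH. NOP58 (YOR310C), its partner, had 287 and 283 RPKM with bEST, against 291 and 298 RPKM with EtOH. The groups overlapped for NOP56, and both bEST values of NOP58 lay narrowly below both EtOH values. NOP1 (YDL014W), the methyltransferase known as fibrillarin in animals, had 477 and 395 RPKM with bEST, against 379 and 399 RPKM with EtOH. Its 20 nM bEST library stood apart, with a log2 ratio of 0.33 (0.17 to 0.50), and its 40 nM ratio was -0.01. NSR1 (YGR159C), a nucleolin-like protein of small subunit assembly, had 466 and 377 RPKM with bEST, against 455 and 504 RPKM with EtOH. Here it was the 40 nM bEST library that was low, at a log2 ratio of -0.42 (-0.52 to -0.32). Fitted log2 fold changes of these 4 genes were -0.19 to 0.16 (SE 0.21 to 0.22, limma adjusted p = 0.736 to 0.949).

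The box H/ACA snoRNP proteins, which carry out pseudouridylation of rRNA, had both bEST libraries below both EtOH libraries in 4 of 4 genes, against 23.9% of all tested genes. These genes are short, with a median coding length of 544.5 bases. Of the ribosomal protein genes, with a median of 433.5 bases, 59.4% showed the same order. At 40 nM the median log2 ratio was -0.22 for the 4 genes and -0.3 for the ribosomal protein genes. It was -0.02 there for all tested genes under 1000 bases. The part of length in this order was not tested. NOP10 (YHR072W-A), the smallest protein of the particle, had 3467 and 2812 RPKM with bEST at 20 and 40 nM, against 5325 and 5626 RPKM with the matched EtOH. Its values rest on 480 and 1369 reads with bEST, against 1329 and 1711 reads with EtOH. The groups are well apart, and the lower of the bEST values is at 40 nM. The log2 ratios were -0.62 (-0.77 to -0.47) at 20 nM and -1.0 (-1.10 to -0.90) at 40 nM. Its log2 fold change was -0.81 (SE 0.18), with an unadjusted p = 0.00298 in limma across all tested genes. The limma adjusted p of 0.0708 missed the threshold. With 1 library left out, so that the other library of its group stood alone, it was 0.0498 without the 20 nM bEST library and 0.0463 without the 40 nM bEST library, but 0.203 and 0.357 without the EtOH library matched to 20 nM or to 40 nM.

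NHP2 (YDL208W), an RNA-binding protein of the same particle, had 789.6 and 1009 RPKM with bEST, against 1205 and 1216 RPKM with EtOH. GAR1 (YHR089C) had 512 and 739 RPKM with bEST, against 884 and 742 RPKM with EtOH. In GAR1 the gap between groups is narrow, since the 40 nM bEST library differed from its matched EtOH library by a log2 ratio of only -0.01 (-0.12 to 0.11). CBF5 (YLR175W), the pseudouridine synthase itself, had 478 and 467 RPKM with bEST, against 542 and 525 RPKM with EtOH. Its log2 ratios, -0.18 (-0.31 to -0.06) at 20 nM and -0.17 (-0.26 to -0.09) at 40 nM, were alike at both doses. Log2 fold changes of NHP2, GAR1 and CBF5 were -0.44 (SE 0.21), -0.40 (SE 0.25) and -0.18 (SE 0.20), with limma adjusted p of 0.375, 0.51 and 0.733. On the RPKM scale, which is per length, levels in this particle ran from 467 RPKM for CBF5 to 5626 RPKM for NOP10, whereas NOP1, NOP56 and NOP58 lay between 283 and 477 RPKM.

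DEAD-box helicases unwind RNA during assembly. All 5 in the list were lower in the 20 nM bEST library than in its EtOH match, with log2 ratios of -0.59 to -0.11, and at 40 nM the ratios were -0.28 to 0.14, the lowest for MAK5. MAK5 (YBR142W), a large subunit helicase, had 49.1 and 58.5 RPKM with bEST, against 67.3 and 71.5 RPKM with EtOH. Its log2 ratios were -0.45 (-0.77 to -0.16) at 20 nM and -0.28 (-0.47 to -0.10) at 40 nM. DRS1 (YLL008W), which also acts on the large subunit, had 76.0 and 90.3 RPKM with bEST, against 97.4 and 91.9 RPKM with EtOH. For both genes the groups did not overlap. DBP2 (YNL112W) had 206 and 266 RPKM with bEST, against 307 and 255 RPKM with EtOH, and its groups overlapped through the 40 nM pair. DBP3 (YGL078C) and HAS1 (YMR290C) overlapped too. The limma adjusted p of the 5 genes ran from 0.488 to 0.923.

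Large subunit factors went in different directions at 20 nM, within the same assembly pathway. NOP7 (YGR103W), ERB1 (YMR049C) and YTM1 (YOR272W) form 1 complex, which acts on the large subunit precursor. NOP7 had 201 and 251 RPKM with bEST at 20 and 40 nM, against 324 and 276 RPKM with EtOH. ERB1 had 58.6 and 47.0 RPKM with bEST, against 54.5 and 52.4 RPKM with EtOH. YTM1 had 125 and 182 RPKM with bEST, against 168 and 149 RPKM with EtOH. NOP7 was lower in both bEST libraries, and YTM1 was low at 20 nM and high at 40 nM. The counting intervals of ERB1 covered 0 at both doses (-0.18 to 0.39 at 20 nM and -0.37 to 0.05 at 40 nM). Their log2 ratios at 20 nM were -0.69 for NOP7, 0.10 for ERB1 and -0.43 for YTM1, and the differences among them were not tested.

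NOG1 (YPL093W), a nucleolar GTPase of the large subunit, was the highest in log2 fold change of the large subunit factors. It had 243 and 181 RPKM with bEST, against 159.5 and 149.9 RPKM with EtOH. Both bEST libraries lay above both EtOH libraries, more so at 20 nM, where the log2 ratio was 0.60 (0.44 to 0.78), than at 40 nM, where it was 0.27 (0.14 to 0.40). The log2 fold change was 0.44 (SE 0.24, limma adjusted p = 0.442). The other GTPases of the list were closer to level. NUG1 (YER006W) had 144 and 131 RPKM with bEST, against 158 and 149 RPKM with EtOH, and NOG2 (YNR053C) had 140.6 and 151 RPKM with bEST, against 149.9 and 142 RPKM with EtOH. The snoRNA gene SNR191 lies inside the NOG2 gene, outside its coding exons.

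RLP7 (YNL002C), a ribosomal-protein-like factor, had 250.1 and 358 RPKM with bEST, against 400.2 and 380.5 RPKM with EtOH, and its low value sat in the 20 nM bEST library. MAK16 (YAL025C) had 129.6 and 212 RPKM with bEST, against 168 and 165 RPKM with EtOH, so that the EtOH values lay between the bEST values. EBP2 (YKL172W) had 137 and 188 RPKM with bEST, against 172 and 173 RPKM with EtOH, in the same order as MAK16. NOP2 (YNL061W), an rRNA methyltransferase, went the other way at 20 nM, with 132 and 114 RPKM with bEST, against 103 and 115 RPKM with EtOH. NOP4 (YPL043W) had 89.7 and 76.5 RPKM with bEST, against 88.5 and 80.9 RPKM with EtOH. Over the 11 large subunit factors the median log2 fold change was -0.03 and limma adjusted p ran from 0.442 to 0.998.

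Small subunit factors split at 20 nM. RRP5, UTP10 and UTP20 were higher in the 20 nM bEST library, and IMP3 and IMP4 were lower there. The higher ones have 5190 to 7482 coding bases and the lower ones 552 and 873. Ratios at 20 nM followed coding length, as described below with the length-corrected values. UTP10 (YJL109C), of the small subunit processome, had 80.8 and 49.7 RPKM with bEST, against 48.1 and 44.8 RPKM with EtOH. RRP5 (YMR229C), needed for both subunits, had 90.1 and 49.1 RPKM with bEST, against 57.8 and 61.1 RPKM with EtOH. UTP20 (YBL004W) had 41.1 and 20.2 RPKM with bEST, against 26.0 and 23.6 RPKM with EtOH. In each of these 3 genes the 20 nM bEST library stood alone above the rest, with log2 ratios of 0.74, 0.63 and 0.64, while the ratios at 40 nM were 0.15 for UTP10, -0.31 for RRP5 and -0.21 for UTP20.

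IMP3 (YHR148W) had 131 and 226 RPKM with bEST, against 237 and 166 RPKM with EtOH. IMP3 was also the least even gene within the EtOH group, with a log2 ratio of -0.51 between its EtOH libraries, and its lowest count was 76 reads, in the 20 nM bEST library. IMP4 (YNL075W) had 136 and 226 RPKM with bEST, against 246 and 210.1 RPKM with EtOH. The log2 ratios of IMP3 were -0.86 (-1.25 to -0.49) at 20 nM and 0.45 (0.21 to 0.69) at 40 nM, and those of IMP4 were -0.85 (-1.14 to -0.57) and 0.10 (-0.07 to 0.28). UTP4 (YDR324C), a processome protein, had 97.1 and 102 RPKM with bEST, against 109.6 and 107 RPKM with EtOH. No fold change of these 6 genes passed, with limma adjusted p of 0.51 to 0.853.

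RNA polymerase I was represented by its largest subunits, RPA190 and RPA135, and by the stalk subunit RPA43. RPA190 (YOR341W) had 147 and 80.7 RPKM with bEST at 20 and 40 nM, against 94.4 and 85.6 RPKM with EtOH. RPA135 (YPR010C) had 154 and 74.1 RPKM with bEST, against 87.8 and 86.5 RPKM with EtOH. In both genes the 20 nM bEST library was the highest of the 4 and the 40 nM bEST library the lowest. RPA43 (YOR340C) had 103 and 115 RPKM with bEST, against 115 and 120.3 RPKM with EtOH, with no library standing apart. At 20 nM the log2 ratios were 0.63 (0.50 to 0.77) for RPA190, 0.81 (0.65 to 0.97) for RPA135 and -0.16 (-0.50 to 0.17) for RPA43. At 40 nM they were -0.08, -0.22 and -0.06. Fitted log2 fold changes were 0.27 (SE 0.31), 0.29 (SE 0.35) and -0.11 (SE 0.22), with limma adjusted p of 0.73 to 0.853. Without the 40 nM bEST library, RPA135 (log2 fold change 0.82, adjusted p = 0.0423) and UTP10 (0.79, adjusted p = 0.0496) passed limma's threshold. In that fit the 20 nM library stood alone and was assumed to vary like the EtOH pair, which alone gave the spread between libraries, and 333 rises and 460 falls were called among the 5317 tested genes, so 2 rises among 36 are not set apart from the background.

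The chaperones RRB1 (YMR131C), which escorts ribosomal protein Rpl3, and SQT1 (YIR012W), which escorts Rpl10, were low in the 20 nM bEST library. RRB1 had 239 and 269.9 RPKM with bEST, against 316 and 288 RPKM with EtOH. SQT1 had 177 and 256 RPKM with bEST, against 263 and 223 RPKM with EtOH. TIF6 (YPR016C), which keeps the large subunit from joining the small one too early, had 290.4 and 303 RPKM with bEST, against 336 and 311 RPKM with EtOH. The groups did not overlap for RRB1 and TIF6 and overlapped for SQT1, and limma adjusted p were 0.643 to 0.833.

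The spread at 20 nM followed the length of the gene. The 5 genes with a coding length of 3000 bases or more (UTP20, UTP10, RRP5, RPA190 and RPA135) had log2 ratios of 0.63 to 0.81 at 20 nM, and the 10 genes under 1000 bases had a median of -0.61. The 21 genes between had a median of -0.17. The same order held over all tested genes, with medians of 0.48, -0.38 and -0.04 for the 436 long, 2011 short and 2731 middle ones. At 40 nM the medians of the 36 genes were -0.21, -0.02 and -0.06 for the long, short and middle lengths, and those of all tested genes were 0.05, -0.02 and 0.12. Across the 36 genes, which share these libraries, the log2 ratio and log2 coding length had Pearson's r = 0.71 and Spearman's rho = 0.65 at 20 nM. At 40 nM r was 0.13 and rho -0.20, and for the ratio of the EtOH libraries they were 0.05 and -0.01. Over the 5178 tested genes with a length, r was 0.28 and rho 0.38 at 20 nM. Long genes of the list were also low in level, with r = -0.84 between log2 mean RPKM and log2 length. These length bounds were chosen after the values were seen.

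With the trend of the ratio on length over all tested genes subtracted, the log2 ratios at 20 nM were -0.01 for RPA190, -0.03 for RRP5, 0.06 for UTP10, -0.26 for UTP20 and 0.38 for RPA135. IMP3 had -0.49, IMP4 -0.54, NOP7 -0.69 and NOG1 0.57. NOP10, the shortest of the 36 at 177 coding bases, moved to -0.20 at 20 nM and -0.60 at 40 nM, with a log2 fold change of -0.40 (SE 0.19, limma adjusted p = 0.336) in a fit with each library corrected in this way. Among all 134 tested genes of at most 250 coding bases the median log2 fold change was -0.39, and 26 of them, NOP10 included, were at or below the NOP10 value. In the length-corrected fit the 36 genes had a median log2 fold change of -0.16, 0 calls in limma and 2 at an unadjusted p under 0.05. Of all 5178 genes in that limma fit, 936 had an unadjusted p under 0.05. GAR1 at 40 nM then had a ratio of 0.01, so that not all 4 box H/ACA genes were below their matched EtOH at both doses after the correction. Depth was lowest in the 20 nM bEST library, and its part in the length pattern was not tested.

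**Figure D4:**
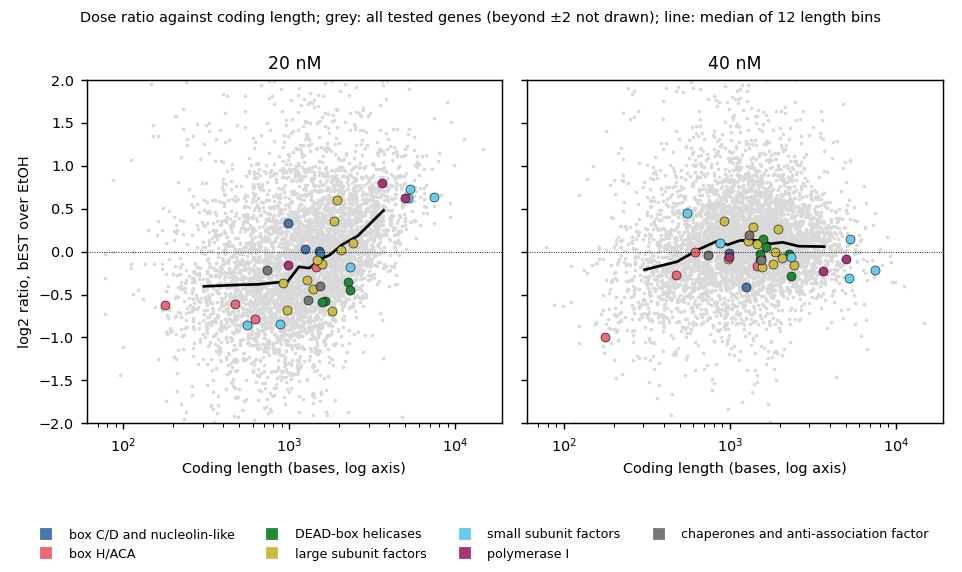
Log2 ratio of bEST over volume-matched EtOH against coding length in bases (log axis), at 20 nM (left) and 40 nM (right), for the 36 genes (coloured by role) over all tested genes (grey) with the median of 12 length bins (line). At 20 nM the 5 genes of 3000 bases or more lie at 0.63 to 0.81 and the short genes mostly below 0, and at 40 nM the long genes lie at -0.31 to 0.15.

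Other genes of the pathway stood in 7 further lists with 169 genes, of which 168 were tested. In limma 0 rose and 0 fell after adjustment, and 5 had an unadjusted p under 0.05, against 869 of all 5317 tested genes. limma-voom on recovered reads was also run, with 0 rises and 0 falls among them. Their median log2 ratio was -0.33 at 20 nM and 0.03 at 40 nM. Both bEST libraries lay below both EtOH libraries in 53 (31.5%) and above in 18 (10.7%), against the 23.9% and 23.0% of all tested genes. The 62 other small subunit factors had a median log2 fold change of -0.09, from UTP30 at -0.64 to UTP14 at 0.25. The 51 other large subunit factors had a median of -0.16, from RSA1 at -0.85 to the helicase PRP43 at 0.62. PRP43, which acts in both ribosome assembly and splicing, had 118 and 107 RPKM with bEST, against 73.3 and 72.3 RPKM with EtOH (limma adjusted p = 0.215), both bEST libraries above both EtOH libraries. The 17 export and late factors had a median of -0.21, from SDO1 at -0.65 to RIA1 at 0.42. These medians rest largely on the 20 nM bEST library. At 20 and 40 nM the median log2 ratios were -0.33 and 0.05 for the small subunit factors, -0.35 and 0.0 for the large subunit factors, and -0.36 and 0.06 for the export and late factors. Without the 20 nM bEST library the median log2 fold changes of these 3 lists were -0.03, -0.05 and -0.03, and without the 40 nM bEST library they were -0.27, -0.30 and -0.31.

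Of the polymerases, the 13 other subunits and factors of RNA polymerase I had a median log2 fold change of -0.21, which was 0.02 without the 20 nM bEST library and -0.47 without the 40 nM one. Their median log2 ratio was -0.48 at 20 nM and -0.01 at 40 nM. Among them RRN11, of the core initiation factor, was lowest, with 13.3 and 29.7 RPKM with bEST, against 37.8 and 35.2 RPKM with EtOH. RRN7, of the same factor, was highest, with 21.6 and 21.5 RPKM with bEST, against 13.9 and 11.4 RPKM with EtOH (log2 fold change 0.73, SE 0.26, limma adjusted p = 0.221). These 2 subunits of 1 complex lay on opposite sides of EtOH in both bEST libraries. The 7 subunits shared by polymerases I and III had a median of -0.39, from RPB10 at -0.49 to RPO26 at -0.20. Several of the 7, RPB10 and RPO26 among them, are also subunits of polymerase II. The list had a median coding length of 441 bases. Its median log2 fold change was -0.12 without the 20 nM bEST library and -0.65 without the 40 nM one. Its median log2 ratio was -0.68 at 20 nM and -0.02 at 40 nM. The 10 subunits of polymerase III had a median of -0.01, from RPC34 at -0.65 to RPO31 at 0.30. That median was -0.16 without the 20 nM bEST library and -0.24 without the 40 nM one.

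Regulators of ribosome gene transcription were the only one of the 7 lists with a median above 0.1. Of 9 listed, 8 were tested, and their median log2 fold change was 0.36, from FHL1 at -0.12 to SCH9 at 0.76. SCH9, a kinase that promotes ribosome synthesis in nutrient-rich cells, had 63.3 and 18.8 RPKM with bEST at 20 and 40 nM, against 22.9 and 17.7 RPKM with EtOH (SE 0.51, limma adjusted p = 0.537). Its value rests on the 20 nM bEST library. At 40 nM the median log2 ratio of the list was 0.06, against 0.61 at 20 nM, and the median log2 fold change was 0.05 without the 20 nM bEST library and 0.65 without the 40 nM one. The 138 ribosomal protein genes, the products that these factors assemble, had both bEST libraries below both EtOH libraries in 82 (59.4%) and above in 0, against 23.9% and 23.0% of all tested genes. In limma 0 passed the threshold and 28 had an unadjusted p under 0.05, against 869 of all 5317 tested genes. Their median coding length was 433.5 bases, and their median log2 fold change was -0.27 before and -0.03 after the length correction. The corrected median ratios had opposite signs, 0.20 at 20 nM and -0.22 at 40 nM, where the uncorrected ones were -0.20 and -0.30. In the corrected fit the median of the shared polymerase subunits was -0.06 and that of the regulators 0.21.

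**Figure D5:**
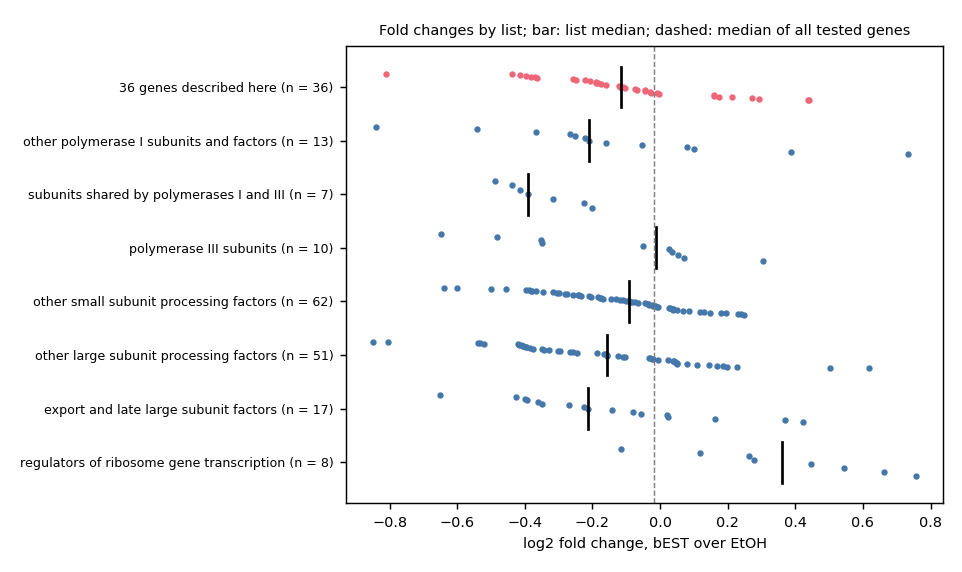
Log2 fold change of bEST over EtOH for the 36 genes (red) and for the genes of 7 further pathway lists (blue), with list medians as bars and the median of all tested genes as a dashed line. List medians run from -0.39 for the subunits shared by polymerases I and III to 0.36 for the regulators.

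Outside the 36, both PAC and RRPE letters preceded 236 further genes, of which 233 were tested. Their median log2 ratio was -0.27 at 20 nM and 0.06 at 40 nM, against -0.18 and -0.06 for the 36 genes and -0.10 and 0.07 for all tested genes. In limma 1 of them rose and 1 fell, against 2.48% and 0.733% of all tested genes. Both are named here because they were the ones called. DPM1 (YPR183W), which makes dolichol-phosphate-mannose for glycosylation in the endoplasmic reticulum, had 488 and 355 RPKM with bEST, against 122 and 139.6 RPKM with EtOH (log2 fold change 1.66, SE 0.25, adjusted p = 0.0171). SIT1 (YEL065W), a siderophore iron transporter, had 11.6 and 14.3 RPKM with bEST, against 40.8 and 42.1 RPKM with EtOH (-1.61, SE 0.24, adjusted p = 0.0164). Neither is known as a ribosome biogenesis factor.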

How the data were processed

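The authors' deposited table holds a value for each gene in each of 4 poly(A) libraries, and its header names no unit. The deposited values were read as RPKM because each, times the R64 coding length minus 60 bases, came out at a whole number of reads once divided by 1 constant per library (within 0.05 reads for 92.9% to 93.7% of values of up to 50 reads). STAR and SAMtools are named in the submitters' processing notes. The sources used here give no counting tool, strand setting, build or annotation. Symbols, coding lengths and promoters came from RefSeq R64. Of 6679 identifiers, 5994 matched it. None of the 36 genes had a repeated 50-base window.

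bEST was compared with EtOH in R 4.3.3 with limma 3.58.1. The fit took log2(RPKM + 1), let the variance follow the level, had no covariate and kept genes averaging 5 RPKM or more. p-values were adjusted by Benjamini-Hochberg over all 5317 tested genes, at 0.05. The added 1 shrinks the fold changes of low genes. Because each group holds both doses, any dose effect counts as spread. For 1 value an exact permutation test of 2 against 2 libraries cannot go below p = 0.333, so none is given. Depths and counting intervals come from recovered reads, without molecular identifiers. Counts differed between the libraries of each group by more than sampling noise (chi-square per degree of freedom 21.2 for bEST and 4.95 for EtOH). The fit was run on simulated counts that held no dose difference and the same spread in all libraries. That run cannot show how the fit behaves with the spread of these libraries. The genes, lists, motifs and tests were chosen with earlier results of these data known. Named genes are the 36, HAC1, KAR2 and ERO1, and in each other list those past the threshold, or else the highest and lowest fold change; others are said to be chosen later. HOP1 and NDT80 come from the marker list. Alternatives were pseudocounts, filters, scaling, leaving out each library, a dose block, limma-voom, no trend and a length correction.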

Additional observations from a re-analysis of the deposited data

Results flagged for a closer look

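Among the 36 genes, 7 had dose ratios of opposite sign with both counting intervals clear of 0. The share of all tested genes that meet this was not counted, so the 7 cannot be set apart from the background. Each ratio compares 1 bEST library with 1 EtOH library, and the difference between doses was not tested. The log2 ratio at 20 nM minus that at 40 nM was 1.03 for RPA135, 0.94 for RRP5 and 0.85 for UTP20, all of 3000 coding bases or more and higher with bEST at 20 nM. It was -1.30 for IMP3, -0.76 for SQT1, -0.72 for MAK16 and -0.71 for YTM1, all lower with bEST at 20 nM and shorter. After subtracting the length trend, the ratios at 20 and 40 nM were 0.38 and -0.29 for RPA135, -0.03 and -0.34 for RRP5, and -0.26 and -0.19 for UTP20. They were -0.49 and 0.49 for IMP3, -0.40 and 0.07 for SQT1, -0.08 and 0.27 for MAK16, and -0.29 and 0.16 for YTM1. RRP5 and UTP20 were then negative at both doses, and the others had opposite signs.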

How the results depend on the processing

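Of the 36 genes 0 rose and 0 fell at pseudocounts of 0.1 and 5, without a filter, at a mean of at least 20 RPKM, with median scaling, without a trend and with the length correction, which was added after seeing the data. Leaving out 1 library gave 0 to 2 rises (UTP10 and RPA135, without the 40 nM bEST library) and 0 to 1 falls (NOP10). limma-voom gave 1 fall. Their median log2 fold change ranged from -0.171 to -0.079 when 1 library was left out and was -0.162 with the length correction. Over all tested genes, 132 rises and 39 falls became 230 and 77 with limma-voom, 214 rises with the length correction, 25 falls without a trend, and 0 and 0 without the filter (limma, 896 at an unadjusted p under 0.05). Leaving out 1 library gave 113 to 333 rises and 32 to 460 falls, the highest without the 40 nM bEST library. The 168 other pathway genes had 0 to 2 rises and 0 to 19 falls in those fits. The cause of these changes was not tested. The replicate block by dose gave 243 rises and 123 falls over all genes and 1 fall among the 36 (NOP10, adjusted p = 0.0175). Over all tested genes, deviations of libraries that share a dose correlated at -0.205, so these libraries did not tend to deviate together. This compares a single difference per group and cannot show whether the libraries were handled as pairs. A crossed block, added after seeing the data, gave 363 rises and 305 falls, and 1 fall among the 36. Counting error was largest in the 20 nM bEST library. It limits the ratios at 20 nM, which also followed gene length.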
